A study of Mus musculus with 25 samples.

Results

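The 10 genes described here are targets of Nrf2 outside the glutathione transferase family, namely Ephx1, Nqo1, Txnrd1, Srxn1, Ugdh, Gclc, Gclm, Hmox1, Osgin1 and Slc7a11, out of 19938 genes measured. They were taken as a named list, with no threshold on their values. The question put to them was which rise with a liver carcinogen only where p53 and Rb are both present, which these arrays can answer for the loss of both genes together. Each was read by 1 probe set with a single gene symbol, and 9 of the 10 were bright enough to be tested. Slc7a11, with a mean log2 signal of 2.72, was below the brightness limit of 3.33 and was fitted only without that limit.

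Expression was measured with 25 Affymetrix arrays of frozen liver from mice of strain FVB;129. By the series text, an albumin promoter drove Cre recombinase, and loxP sites lay in Rb, in p53 or in both. That promoter works in hepatocytes, so other liver cells such as endothelial cells are taken to keep both genes. The labels mark loss of p53 and Rb together (called DKO here), of p53 alone (p53KO), of Rb alone (RbKO) or of neither (WT), without saying whether the WT mice carry Cre or loxP. Mice aged 14 days received 1 injection of diethylnitrosamine (DEN) at 20 mg/kg into the abdomen 24 h before the liver was taken. With DEN there were 5 DKO, 5 p53KO, 4 RbKO and 5 WT arrays, and untreated mice of that age gave 3 DKO and 3 WT arrays. DEN is a carcinogen that hepatocytes turn into a DNA-alkylating compound. The labels give the untreated animals' treatment as none, while the series text speaks of saline. The data used here hold no untreated p53KO or RbKO array, so the response to DEN can be computed in DKO and WT only. The labels do not say that replicates are separate animals, and p-values therefore measure the spread between these arrays, which may be technical.

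The array names fall into 3 sets, and set 2, with 2 DEN WT arrays, 1 DEN RbKO array and 1 untreated WT array, stood apart on the first principal component (25.8% of the variance, at 41.1 to 48.7 against -19.2 to 9.6 for all other arrays). Set 1 holds 16 arrays of all 6 groups, and set 3 holds 3 p53KO and 2 DKO arrays after DEN. Every test below has the set as a term. Hepatocyte markers were high on all arrays, at a mean log2 signal of 10.8 to 11.63 over 9 genes. Rb1, a target of the deletion, was called in 0 of 12 comparisons by limma, with an unadjusted p under 0.05 in 2. Its log2 signal was 4.76 to 5.02 in untreated DKO livers against 5.30 to 5.76 in untreated WT livers, and 5.55 to 6.28 in DEN RbKO livers against 5.04 to 6.02 in DEN WT livers, so it does not check the RbKO label.

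Nrf2, encoded by Nfe2l2, is a transcription factor that Keap1 holds in the cytoplasm and hands over for degradation. Electrophiles and oxidants modify Keap1, and Nrf2 then enters the nucleus and binds, with small Maf proteins, the antioxidant response element, whose core is TGACNNNGC. In the liver its targets make glutathione, reduce quinones and thioredoxin, and prepare foreign compounds for excretion.

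The promoters of 5 members are shown first, as 250 bases before a RefSeq start site (GRCm38.p6), each read 5′ to 3′ on the strand of its gene, with matches to TGACNNNGC on either strand in capitals. Txnrd1, Ugdh and Gclm are shown because they hold a match in this stretch, although Gclm was called in no comparison, and Ephx1 and Nqo1 because their signals changed with no match there. The stretches are chr10:82858956-82859205 on the plus strand for Txnrd1, chr5:65435843-65436092 on the minus strand for Ugdh, chr3:122245307-122245556 on the plus strand for Gclm, chr1:181017570-181017819 on the minus strand for Ephx1 and chr8:107403206-107403455 on the minus strand for Nqo1.
Txnrd1: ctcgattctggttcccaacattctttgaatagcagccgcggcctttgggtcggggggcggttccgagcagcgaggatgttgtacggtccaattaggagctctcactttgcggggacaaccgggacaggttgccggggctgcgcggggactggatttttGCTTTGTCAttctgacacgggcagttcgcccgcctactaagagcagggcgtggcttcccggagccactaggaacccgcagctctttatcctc
Ugdh: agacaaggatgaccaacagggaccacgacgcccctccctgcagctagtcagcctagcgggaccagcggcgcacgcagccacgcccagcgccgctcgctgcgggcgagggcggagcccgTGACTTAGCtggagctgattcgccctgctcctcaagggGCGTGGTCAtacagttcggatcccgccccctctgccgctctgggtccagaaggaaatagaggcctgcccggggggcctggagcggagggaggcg
Gclm: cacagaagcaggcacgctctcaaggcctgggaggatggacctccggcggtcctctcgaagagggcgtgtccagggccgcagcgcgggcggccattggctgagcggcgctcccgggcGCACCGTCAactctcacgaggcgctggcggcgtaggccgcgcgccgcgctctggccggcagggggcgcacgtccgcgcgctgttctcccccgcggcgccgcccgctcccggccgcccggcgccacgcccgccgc
Ephx1: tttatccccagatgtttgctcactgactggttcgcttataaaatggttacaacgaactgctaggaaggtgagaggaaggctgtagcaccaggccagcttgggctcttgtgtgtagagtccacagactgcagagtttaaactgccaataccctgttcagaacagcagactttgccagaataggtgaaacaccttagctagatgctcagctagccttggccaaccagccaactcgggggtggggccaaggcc
Nqo1: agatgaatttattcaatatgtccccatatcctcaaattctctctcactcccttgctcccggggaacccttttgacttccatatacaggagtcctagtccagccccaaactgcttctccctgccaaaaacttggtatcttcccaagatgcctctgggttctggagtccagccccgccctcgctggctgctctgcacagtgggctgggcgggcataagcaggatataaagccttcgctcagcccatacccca
The table of promoters gives 10 windows for 8 of the 10 members, each with 250 bases before and 50 bases after a start, and none was used for Gclc and Hmox1. The motif was in 4 of these 10 windows, those of Gclm, Txnrd1 (1 of its 3 starts), Srxn1 and Ugdh (2 matches). Over all genes it was in 4071 of 32851 windows, or 12.4%. The match of Gclm lies 134 to 126 bases before the start and that of Txnrd1 92 to 84 bases before it, and those of Ugdh lie 132 to 124 and 94 to 86 bases before it. That of Srxn1 lies 28 to 36 bases after its start, outside the stretches shown. A match is a run of letters and was not tested for binding, and Nrf2 elements are also known outside such windows.

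DEN raised 5 of the 9 tested members in WT livers: Ephx1, Ugdh, Nqo1, Srxn1 and Txnrd1. None fell. Of all 15950 genes tested, 2.08% were called higher in this comparison by limma at a Benjamini-Hochberg adjusted p under 0.05, the rule for every call below, and 1.91% were called lower. The median difference of the 9 members was 0.64 log2, against 0.02 over all genes. In DKO livers DEN raised 1 of 9, Ugdh, and lowered 3, Gclc, Hmox1 and Osgin1, where 4.49% of all genes were called higher and 16.5% lower. The median there was 0.03, against 0 over all genes. The difference between the DKO and WT responses was called below 0 for 6 of 9 members (Ephx1, Nqo1, Txnrd1, Gclc, Hmox1 and Osgin1) and above 0 for none, where 8.55% of all genes were called below 0 and 1.36% above. A member was counted as rising in WT but not in DKO if it was called higher with DEN in WT, was not called higher in DKO, and had a called difference below 0. Ephx1, Nqo1 and Txnrd1 met this rule. It sets the loss of both genes against the loss of neither and does not test whether either gene alone is needed. DEN RbKO livers had Ephx1 and Nqo1 called above untreated WT livers, and DEN p53KO livers had Ephx1 called above them, as given below. In p53KO livers the call of Ephx1 ended in some settings, and Nqo1 was called in some. In other settings the rule was also met by Gclc (set 1 alone, array weights, trend and robust eBayes, and without DEN DKO replicate 5) and by Srxn1 (set 1 alone, array weights and centring on the array median).

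**Figure D1:**
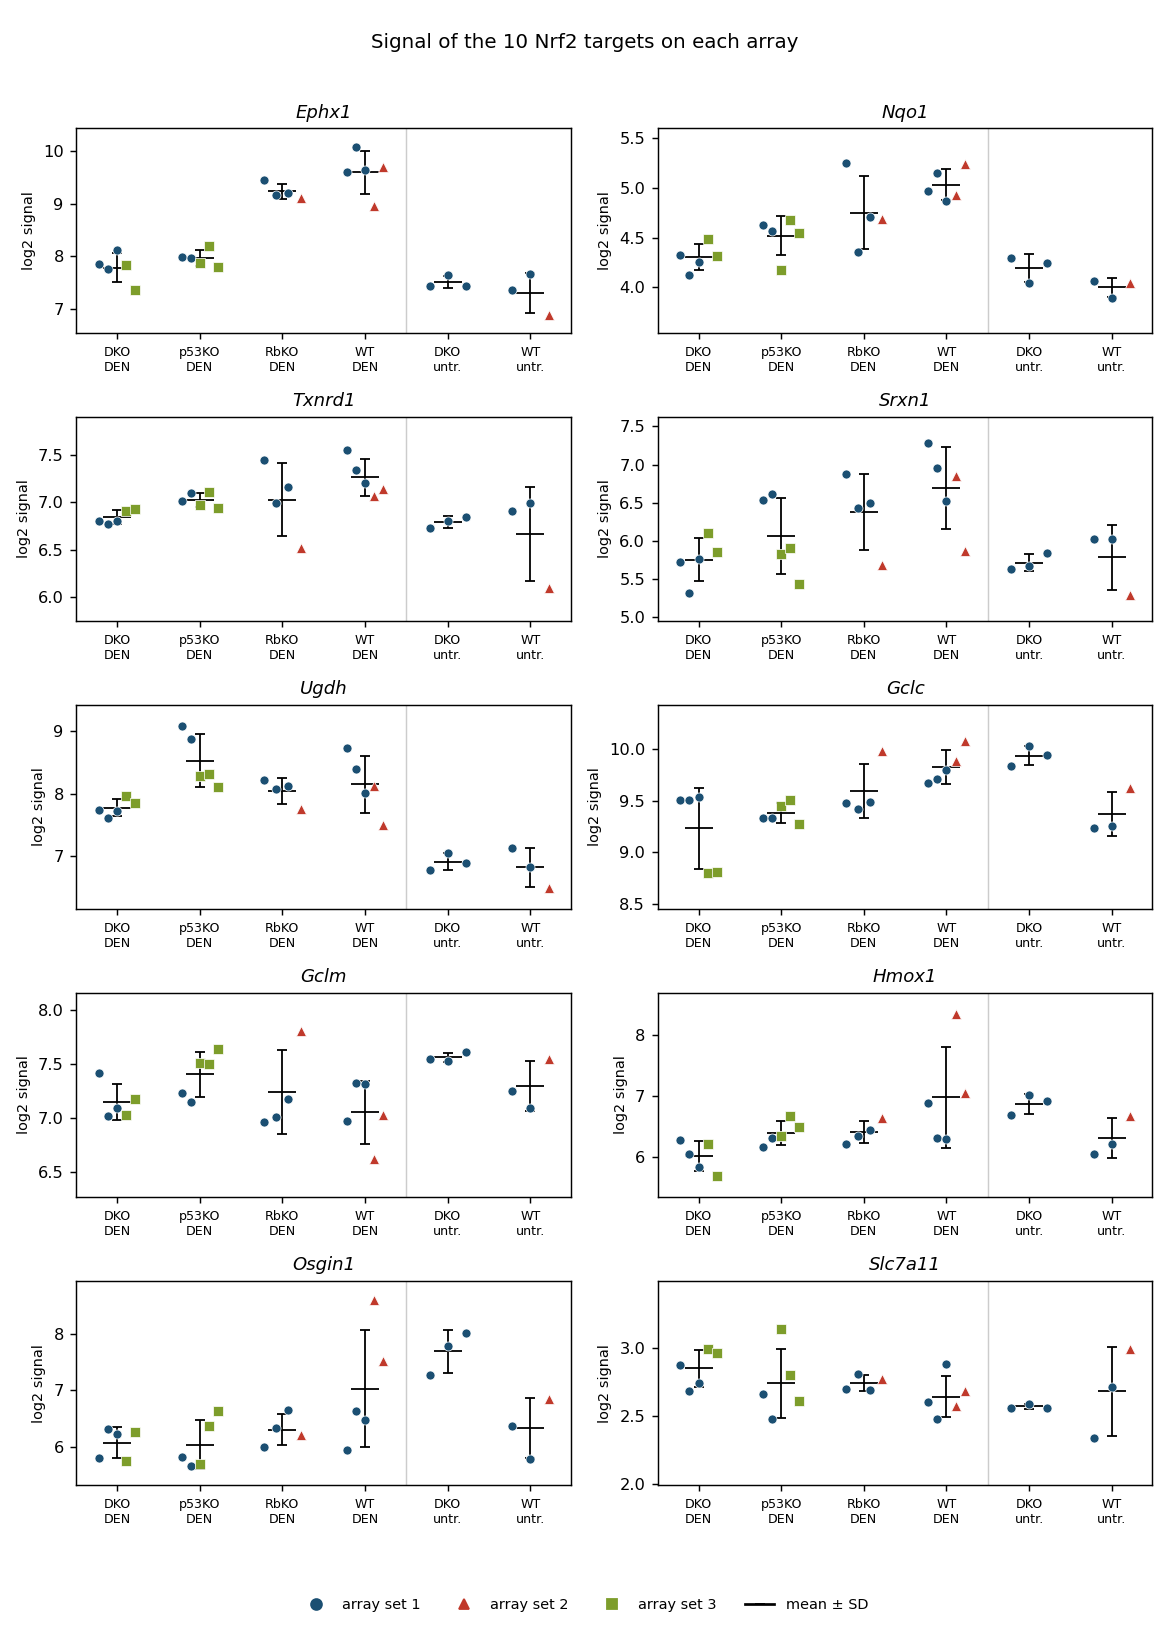
The log2 RMA signal (vertical axes) of each of the 10 members on every array, with the 6 groups along the horizontal axes, points marked by array set, and the mean ± SD of each group as bars. Ephx1 separates WT and RbKO livers after DEN, at 8.96 to 10.07, from all other arrays, at 6.90 to 8.19.

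Ephx1 (chr1:180989556-181017569) encodes microsomal epoxide hydrolase, which opens reactive epoxides to diols. Its log2 signal was 7.86, 7.77, 8.12, 7.83 and 7.37 in DEN DKO livers, 7.99, 7.98, 7.87, 8.19 and 7.80 in DEN p53KO livers, 9.44, 9.17, 9.20 and 9.11 in DEN RbKO livers and 9.59, 10.07, 9.64, 8.96 and 9.69 in DEN WT livers. Untreated livers had 7.45, 7.65 and 7.44 in DKO and 7.36, 7.66 and 6.90 in WT. All RbKO and WT arrays after DEN thus lay above every other array, whereas DEN DKO arrays overlapped untreated ones. By limma, DEN raised Ephx1 by 2.31 log2 (SE 0.16, adjusted p = 1.36e-09) in WT, a fold of 4.96, and by 2.26 in set 1 and 2.43 in set 2. In DKO the change was 0.35 (SE 0.17, adjusted p = 0.151), and the difference between the responses was -1.96 (SE 0.23, adjusted p = 6.36e-05). With set 1 alone the change in DKO was 0.41 and was itself called (adjusted p = 0.0382 by limma), and so was 0.38 with array weights (adjusted p = 0.0421), so in these fits Ephx1 rose in both genotypes, less in DKO.

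Nqo1 (chr8:107388225-107403205), a 2-electron quinone reductase and the usual reporter gene of Nrf2, had a mean log2 signal of 4.52, and 49.1% of genes had a lower mean. After DEN it stood at 4.33, 4.13, 4.26, 4.49 and 4.32 in DKO livers, at 4.63, 4.57, 4.18, 4.68 and 4.55 in p53KO livers, at 5.25, 4.36, 4.71 and 4.69 in RbKO livers and at 4.97, 5.15, 4.87, 4.93 and 5.24 in WT livers. Without DEN it stood at 4.30, 4.04 and 4.25 in DKO livers and at 4.07, 3.89 and 4.04 in WT livers. Every DEN WT array was above every untreated WT array and above every DKO and p53KO array, while RbKO arrays overlapped the DKO and p53KO arrays at the low end and the WT arrays at the high end. The limma change with DEN was 1.03 (SE 0.15, adjusted p = 0.000215) in WT, with 1.02 in set 1 and 1.04 in set 2, and 0.10 (SE 0.16, adjusted p = 0.689) in DKO. The responses differed by -0.93 (SE 0.22, adjusted p = 0.0092). Nqo1 met the rule in all 12 other processing settings and with each of 16 arrays left out.

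Txnrd1 (chr10:82833951-82897724) encodes cytosolic thioredoxin reductase. DEN livers had log2 signals of 6.80, 6.77, 6.80, 6.91 and 6.93 in DKO, 7.02, 7.10, 6.97, 7.11 and 6.94 in p53KO livers, 7.45, 6.99, 7.16 and 6.52 in RbKO livers, and 7.56, 7.34, 7.21, 7.07 and 7.14 in WT. Untreated livers had 6.73, 6.80 and 6.85 in DKO and 6.91, 6.99 and 6.09 in WT, where the lowest value is the array of set 2. The DEN WT arrays lay above all untreated WT arrays, by 0.64 in the limma fit (SE 0.12, adjusted p = 0.00291), or 0.42 in set 1 and 1.01 in set 2. This rise lost its call without set 2, at 0.42 (adjusted p = 0.0622 by limma), with no set term, at 0.60 (0.12), and with only the groups compared in the fit, at 0.63 (0.0652). The change in DKO was 0.03 (SE 0.13, adjusted p = 0.878) and the difference of responses -0.60 (SE 0.18, adjusted p = 0.0323). This last call was the weakest of the 3. It ended without any 1 of 10 of the 16 arrays, which were the 3 untreated DKO arrays, DEN DKO replicates 1, 2 and 3, DEN WT replicates 1, 4 and 5 and untreated WT replicate 3. Without the last of these the difference was -0.45 (adjusted p = 0.181 by limma), and in set 1 it was -0.43 (adjusted p = 0.163).

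**Figure D2:**
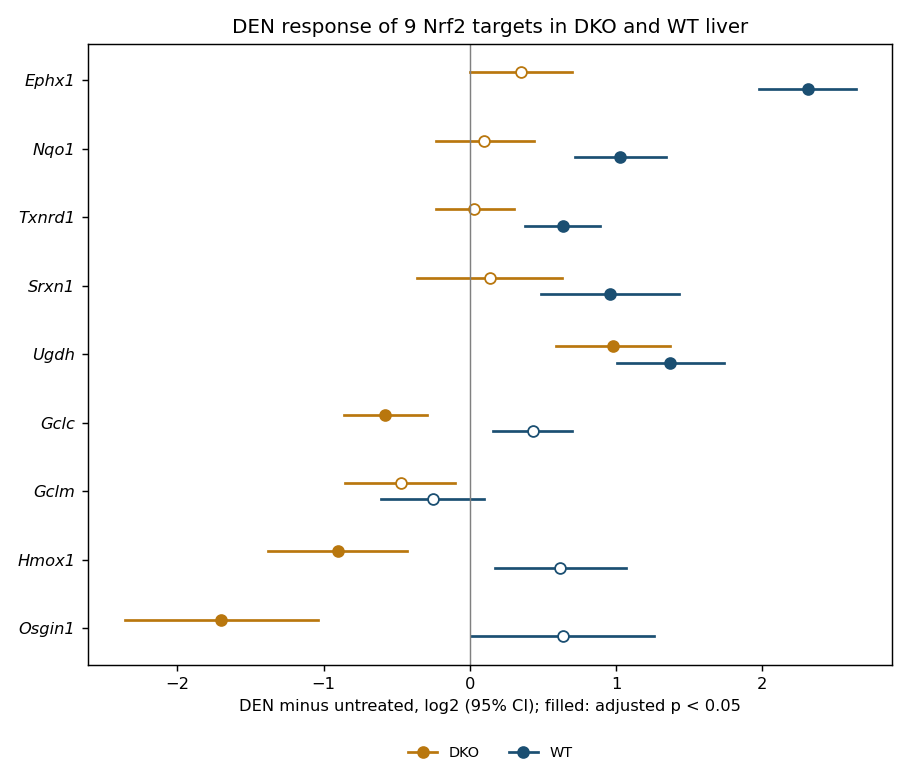
The limma change with DEN (horizontal axis, DEN minus untreated in log2, with 95% confidence intervals) in DKO and in WT livers for the 9 tested members, with filled points where the adjusted p is under 0.05. The change of Ephx1 is 0.35 in DKO and 2.31 in WT, that of Ugdh 0.98 and 1.37, and that of Osgin1 -1.70 and 0.64.

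Srxn1 (chr2:152105524-152111376) encodes sulfiredoxin, which restores overoxidised peroxiredoxins. It had log2 signals of 5.72, 5.32, 5.77, 6.10 and 5.86 in DEN DKO livers, 6.54, 6.62, 5.83, 5.91 and 5.44 in DEN p53KO livers, 6.88, 6.43, 6.50 and 5.69 in DEN RbKO livers and 7.28, 6.96, 6.52, 6.85 and 5.87 in DEN WT livers. In untreated livers it had 5.64, 5.67 and 5.84 in DKO and 6.03, 6.03 and 5.30 in WT. The groups overlapped, and the lowest DEN WT and DEN RbKO values and the lowest untreated WT value were all from set 2. By limma, DEN raised Srxn1 by 0.96 (SE 0.23, adjusted p = 0.0146) in WT, with 0.89 in set 1 and 1.06 in set 2, and the call ended without untreated WT replicate 1 (adjusted p = 0.0692) or 2 (0.0667). This call also ended with no set term, at 0.91 (adjusted p = 0.17 by limma), and with only the groups compared in the fit (0.0713). The change in DKO was 0.14 (SE 0.24, adjusted p = 0.731). The difference of responses, -0.83 (SE 0.33, 95% interval -1.51 to -0.14), was not called (adjusted p = 0.119), so Srxn1 did not meet the rule, although in set 1 alone the difference was -1.01 and was called (adjusted p = 0.0204).

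Ugdh (chr5:65413207-65435842) encodes UDP-glucose dehydrogenase, the source of the UDP-glucuronic acid used for conjugation. In DEN livers its log2 signals were 7.74, 7.60, 7.72, 7.96 and 7.85 in DKO, 9.08, 8.87, 8.28, 8.31 and 8.10 in p53KO livers, 8.22, 8.07, 8.13 and 7.75 in RbKO livers and 8.73, 8.39, 8.01, 8.13 and 7.50 in WT. In untreated livers they were 6.78, 7.05 and 6.88 in DKO and 7.13, 6.82 and 6.49 in WT. All DEN arrays of all 4 genotypes lay above all untreated arrays. DEN raised Ugdh by 0.98 (SE 0.19, adjusted p = 0.000537) in DKO and by 1.37 (SE 0.18, adjusted p = 3.53e-05) in WT by limma, and the difference of -0.40 was not called (95% interval -0.93 to 0.14, adjusted p = 0.382). Among the 9 tested members it was the one raised in both genotypes. After DEN it differed between DKO and WT by -0.47 (adjusted p = 0.0845), and was called lower without DEN WT replicate 3 (adjusted p = 0.035 by limma) or 5 (0.0485) or DEN DKO replicate 4 (0.0479). It was also called lower in set 1 alone, the only set with both groups, at -0.69 (adjusted p = 0.00616 by limma). The same held with array weights, at -0.57 (0.02), and with array centring, at -0.52 (0.0444).

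Gclc, Hmox1 and Osgin1 fell with DEN in DKO livers, and their WT change was not called. Gclc (chr9:77754535-77794489), the catalytic subunit of the first enzyme of glutathione synthesis, was at 9.51, 9.51, 9.54, 8.80 and 8.81 log2 in DEN DKO livers and at 9.84, 10.03 and 9.94 in untreated DKO livers. It was at 9.67, 9.71, 9.80, 9.88 and 10.08 in DEN WT livers and at 9.24, 9.26 and 9.62 in untreated WT livers. In neither genotype did the treated and untreated arrays overlap, and both lowest DEN DKO values were from set 3. The limma change was -0.58 (SE 0.14, adjusted p = 0.0039) in DKO, or -0.42 in set 1, and 0.43 (SE 0.13, adjusted p = 0.0648) in WT. The WT rise was called in set 1 alone, at 0.48 (adjusted p = 0.00496 by limma), with array weights, at 0.45 (0.00694), and with trend and robust eBayes (0.0491). The responses differed by -1.01 (SE 0.19, adjusted p = 0.00167). DEN p53KO livers had 9.28 to 9.51 and DEN RbKO livers 9.42 to 9.98.

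Hmox1 (chr8:75093618-75100593) encodes heme oxygenase 1, which Bach1 represses and Nrf2 induces, and which macrophages also express. Its log2 signals were 6.28, 6.05, 5.84, 6.21 and 5.69 in DEN DKO livers against 6.70, 7.02 and 6.92 in untreated DKO livers, and 6.89, 6.32, 6.30, 8.35 and 7.05 in DEN WT livers against 6.05, 6.21 and 6.68 in untreated WT livers. The DKO groups did not overlap, and the 2 highest DEN WT values were from set 2. By limma the change was -0.90 (SE 0.23, adjusted p = 0.00621) in DKO and 0.62 (SE 0.22, adjusted p = 0.119) in WT, where it was 0.37 in set 1 and 1.02 in set 2. The difference was -1.52 (SE 0.32, adjusted p = 0.00355), and -1.20 in set 1. DEN p53KO livers had 6.16 to 6.67 and DEN RbKO livers 6.21 to 6.65.

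Osgin1 (chr8:119425882-119446257), an oxidative stress induced growth inhibitor, had the largest difference between responses of the 9 tested members. It had 5.79, 6.31, 6.22, 5.75 and 6.27 log2 in DEN DKO livers against 7.27, 7.79 and 8.02 in untreated DKO livers. It had 5.94, 6.63, 6.47, 8.60 and 7.52 in DEN WT livers against 6.37, 5.78 and 6.85 in untreated WT livers. Untreated DKO livers lay above all DKO, p53KO and RbKO livers after DEN, whose highest value was 6.66, and DEN WT livers reached into their range only with the 2 arrays of set 2. By limma, DEN changed Osgin1 by -1.70 (SE 0.32, adjusted p = 0.00041) in DKO, or -1.58 in set 1, and by 0.64 (SE 0.30, adjusted p = 0.281) in WT, or 0.27 in set 1 and 1.21 in set 2. The difference was -2.34 (SE 0.44, adjusted p = 0.00158), and -1.86 in set 1.

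Before DEN, DKO and WT livers differed in 2 of the 9 members, Osgin1 and Gclc, both higher in DKO, where 0.865% of all genes were called higher and 0.245% lower. Osgin1 was higher by 1.68 (SE 0.35, adjusted p = 0.0133 by limma) and Gclc by 0.69 (SE 0.15, adjusted p = 0.0207). The call of Gclc ended without untreated WT replicate 1 or 2 or untreated DKO replicate 2 or 3 (adjusted p up to 0.122 by limma), and that of Osgin1 without untreated WT replicate 2 or untreated DKO replicate 2 or 3 (adjusted p up to 0.109). Hmox1, at 0.83 (SE 0.25, adjusted p = 0.114), did not pass, although its 3 untreated DKO arrays lay above all untreated WT arrays. It was called in set 1 alone, at 0.75 (adjusted p = 0.012 by limma), without set 2 (0.0295), with array weights (0.00381) and with only the groups compared in the fit (0.00673). The differences of Ephx1, Nqo1 and Txnrd1 before DEN were 0.07 (95% interval -0.31 to 0.45), 0.21 (-0.16 to 0.57) and -0.05 (-0.34 to 0.25), and none was called.

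Some markers of cell types moved beside these members. Over all genes, 16.5% were called lower with DEN in DKO, 1.91% lower with DEN in WT, 8.55% below 0 in the difference of responses, 9.14% lower in DEN DKO than in DEN WT livers and 0.865% higher in untreated DKO than in untreated WT livers. Of 8 neutrophil and myeloid precursor markers, 3 were called higher in untreated DKO than in untreated WT livers, 5 lower with DEN in DKO and 4 below 0 in the difference of responses, and their summed signal was 367 to 1354 in DEN DKO, 153 to 785 in DEN WT, 1371 to 2603 in untreated DKO and 273 to 326 in untreated WT livers. Of 8 endothelial markers, 7 were called lower with DEN in DKO, 4 below 0 in the difference of responses and 6 lower in DEN DKO than in DEN WT livers, and their summed signal was 487 to 585 in DEN DKO, 723 to 945 in DEN WT, 946 to 1005 in untreated DKO and 730 to 1103 in untreated WT livers. Of 7 stellate cell markers, 4 were called lower with DEN in DKO and 1 with DEN in WT. Of 11 macrophage markers, 3 were called lower with DEN in DKO and none was called with DEN in WT, and the sum was 841 to 1206 in DEN DKO, 877 to 1507 in DEN WT, 1159 to 1277 in untreated DKO and 1094 to 1297 in untreated WT livers. Of 9 hepatocyte markers, 1 was called higher and 4 lower with DEN in DKO, 1 lower with DEN in WT, none in the difference of responses and 2 lower in DEN DKO than in DEN WT livers. The part of these markers' cell types in the members' changes and differences was not tested. In whole liver, fewer cells of a type and less RNA per cell cannot be told apart.

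Gclm and Slc7a11 had no call. Gclm (chr3:122245487-122267215), the modifier subunit of the same enzyme as Gclc, had log2 signals of 7.42, 7.02, 7.10, 7.03 and 7.18 in DEN DKO livers against 7.55, 7.53 and 7.61 in untreated DKO livers, and 6.98, 7.33, 7.32, 6.62 and 7.03 in DEN WT livers against 7.25, 7.10 and 7.55 in untreated WT livers. The WT groups overlapped and the DKO groups did not. By limma its change was -0.47 (SE 0.18, adjusted p = 0.0683) in DKO and -0.25 (SE 0.17, adjusted p = 0.496) in WT, and it was not called in any of the 12 comparisons. The change in DKO was called in set 1 alone, at -0.38 (adjusted p = 0.0281 by limma), without set 2, at -0.47 (0.00922), with array centring, at -0.57 (0.0248), with array weights, at -0.45 (0.0145), and without DEN DKO replicate 1, at -0.59 (0.0312). In WT it was 0.04 in set 1 and -0.73 in set 2. Slc7a11 (chr3:50364936-50499087), the cystine importer that feeds glutathione synthesis, ranged from 2.68 to 2.99 in DEN DKO, from 2.48 to 2.88 in DEN WT, from 2.56 to 2.59 in untreated DKO and from 2.34 to 2.99 in untreated WT livers. All DEN DKO arrays thus lay above all untreated DKO arrays, by a small margin, and the WT groups overlapped. Only 6.61% of genes had a lower mean. In the limma fit without the brightness limit its change was 0.17 (95% interval -0.10 to 0.45, adjusted p = 0.393) in DKO and -0.05 (-0.31 to 0.22, adjusted p = 0.936) in WT.

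Loss of p53 alone and loss of Rb alone were compared with WT after DEN. In p53KO livers 1 of 9 members was called lower and none higher, where 1.07% of all genes were called lower and 0.708% higher. That member was Ephx1, at -1.68 (SE 0.17, adjusted p = 3.12e-06 by limma), and at -1.78 in set 1, the only set with both groups. The share of all genes with an unadjusted p under 0.05 is not given here, so the next count cannot be judged against it. By limma, 5 members had an unadjusted p under 0.05, all below 0. Beside Ephx1 these were Txnrd1 at -0.47 (SE 0.13, adjusted p = 0.063), Srxn1 at -0.77 (SE 0.24, adjusted p = 0.0975), Nqo1 at -0.51 (SE 0.16, adjusted p = 0.103) and Osgin1 at -0.74 (SE 0.32, adjusted p = 0.242), which did not pass. Without DEN WT replicate 3, Txnrd1 and Srxn1 passed as well, at -0.56 and -0.93 (adjusted p = 0.0279 and 0.0471 by limma). Nqo1 was called lower with no set term, at -0.51 (0.0214), and Txnrd1 with array centring, at -0.49 (0.0488). Gclc was at -0.12 (adjusted p = 0.741), although all its DEN p53KO arrays lay below all its DEN WT arrays. In set 1 alone Gclc was called lower, at -0.40 (adjusted p = 0.0282 by limma), and Ugdh was called higher, at 0.60 (0.0401).

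In RbKO livers 0 of 9 members were called by limma, where 5.23% of all genes were called higher and 6.13% lower. Those shares are for the adjusted threshold. The share of all genes with an unadjusted p under 0.05 is not given here, so the next count cannot be judged against it. At that unadjusted threshold there were 4 members by limma, all below 0. These were Ephx1 at -0.42 (SE 0.15, adjusted p = 0.0662), Txnrd1 at -0.32 (SE 0.11, adjusted p = 0.0724), Hmox1 at -0.45 (SE 0.20, adjusted p = 0.154) and Osgin1 at -0.59 (SE 0.28, adjusted p = 0.18). Within set 1 Osgin1 was at -0.02, and within set 2, with 1 RbKO array, at -1.85. The number of all genes called rested on that array, RbKO replicate 4, falling to 279 without it, against 1811 with it. Without RbKO replicate 1, 2 members were called lower by limma, Txnrd1 at -0.41 (adjusted p = 0.028) and Nqo1 at -0.44 (adjusted p = 0.0327). Without DEN WT replicate 3 Txnrd1 was called at -0.40 (adjusted p = 0.0278), and without DEN WT replicate 4 Ephx1 at -0.52 (adjusted p = 0.0297). Ephx1 was also called lower with array weights, at -0.54 (adjusted p = 0.0181 by limma).

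In DKO livers after DEN 5 of 9 members were lower than in WT and none higher, where 9.14% of all genes were called lower and 2.69% higher. Ephx1 was at -1.89 (SE 0.16, adjusted p = 1.09e-07 by limma), Srxn1 at -1.13 (SE 0.23, adjusted p = 0.002), Nqo1 at -0.72 (SE 0.15, adjusted p = 0.00306), Hmox1 at -0.69 (SE 0.22, adjusted p = 0.0383) and Txnrd1 at -0.65 (SE 0.12, adjusted p = 0.00127). The call of Hmox1 ended without DEN WT replicate 1 or DEN DKO replicate 2, 3 or 5 (adjusted p up to 0.103 by limma). It also ended in set 1 alone, at -0.45 (adjusted p = 0.0683), with another quantile normalization, at -0.63 (0.0783), and with only the groups compared in the fit, at -0.45 (0.444). The call of Txnrd1 ended with no set term, at -0.42 (adjusted p = 0.0746 by limma). Gclc, at -0.32 (adjusted p = 0.11), was not called, but was called lower with no set term, at -0.59 (0.0118), and with the set as a random block, at -0.44 (0.0354). In set 1 Gclc was at -0.21. The 3 comparisons of knockouts with WT share the 5 DEN WT arrays.

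**Figure D3:**
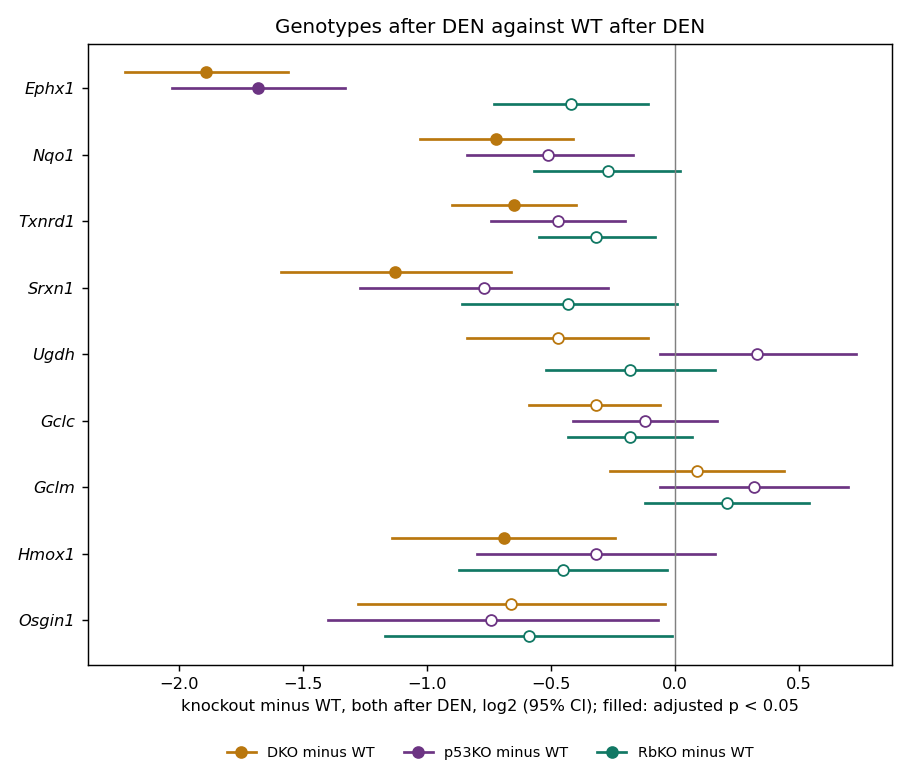
The limma difference from WT after DEN (horizontal axis, log2, with 95% confidence intervals) in DKO, p53KO and RbKO livers for the 9 tested members, with filled points where the adjusted p is under 0.05. Ephx1 is at -1.89 in DKO livers, at -1.68 in p53KO livers and at -0.42 in RbKO livers.

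Set directly against each other, the knockouts differed in Ephx1 and Ugdh. Ephx1 was lower in DKO than in RbKO livers by -1.47 (SE 0.16, adjusted p = 2.69e-05 by limma) and lower in p53KO than in RbKO livers by -1.26 (SE 0.17, adjusted p = 0.000613), and the difference of DKO from p53KO was -0.21 (95% interval -0.50 to 0.08, adjusted p = 0.498). The order of its set-adjusted means was WT after DEN (9.75), RbKO (9.33), p53KO (8.07), DKO after DEN (7.86), DKO untreated (7.51) and WT untreated (7.44). Of the 5 neighbouring pairs in this order, only RbKO and p53KO differed by a call. Ugdh was lower in DKO than in p53KO livers by -0.81 (SE 0.16, adjusted p = 0.00812 by limma), at -1.29 in set 1 and -0.32 in set 3. With no set term that call ended, at -0.75 (adjusted p = 0.142 by limma). With all arrays and the set as a term, Ephx1 and Ugdh were the only members called in these comparisons. There 0.884% (DKO against RbKO), 0.382% (p53KO against RbKO) and 1.51% (DKO against p53KO) of all genes were called lower, and 0.144%, 0.194% and 0.357% higher. Srxn1 was called lower in DKO than in RbKO livers in set 1 alone, at -1 (adjusted p = 0.00556 by limma), with array weights (0.0369) and with only the groups compared (0.0114). In set 1 alone it was also called lower in DKO than in p53KO livers, at -0.98 (0.00945), where set 3 gave 0.25. Ugdh was called higher in p53KO than in RbKO livers in set 1 alone, at 0.83 (0.0106), with array weights (0.0315) and with only the groups compared (0.0105).

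Since p53KO and RbKO lack untreated arrays, their DEN arrays were also set against untreated WT, which joins the effects of DEN and genotype. RbKO livers had 3 of 9 members higher, Ephx1 at 1.89 (SE 0.17, adjusted p = 6.54e-08 by limma), Ugdh at 1.19 (SE 0.19, adjusted p = 0.000186) and Nqo1 at 0.76 (SE 0.16, adjusted p = 0.00283), where 4.6% of all genes were called higher and 5.4% lower. DEN p53KO livers had 2 of 9 higher, Ugdh at 1.71 (SE 0.21, adjusted p = 4.71e-05) and Ephx1 at 0.63 (SE 0.19, adjusted p = 0.04), where 3.17% were called higher and 3.7% lower. The call of Ephx1 in p53KO livers ended without any 1 of 6 of the 8 arrays, which were all 3 untreated WT arrays and p53KO replicates 1, 2 and 4 (adjusted p up to 0.194 by limma). It also ended in set 1 alone, the only set with both groups, at 0.48 (adjusted p = 0.0517 by limma). With only the groups compared in the fit it ended too, at 0.48 (0.0856). Nqo1, at 0.52 (SE 0.18, adjusted p = 0.0777), did not pass, although all DEN p53KO arrays lay above all untreated WT arrays. It was called without p53KO replicate 3, at 0.57 (adjusted p = 0.0438 by limma), in set 1 alone, at 0.62 (0.0333), and with array weights, at 0.56 (0.0147). It was also called with no set term (0.0351), with the set as a random block (0.048) and with only the groups compared in the fit (0.0351).

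Nfe2l2, the gene of Nrf2 itself and no member of the list, rose with DEN in WT. Its log2 signal was 7.53, 7.58, 8.02, 7.43 and 7.20 in DEN DKO livers, 8.03, 7.85, 7.68, 7.35 and 7.36 in DEN p53KO livers, 8.19, 8.29, 8.13 and 8.27 in DEN RbKO livers and 8.30, 8.53, 8.20, 8.14 and 8.33 in DEN WT livers. Untreated livers had 7.52, 7.88 and 7.72 in DKO and 7.67, 7.57 and 7.56 in WT. All DEN RbKO and DEN WT arrays lay above all DEN DKO, DEN p53KO and untreated arrays. By limma, DEN raised it by 0.71 (SE 0.13, adjusted p = 0.00158) in WT and changed it by 0.02 (SE 0.13, adjusted p = 0.935) in DKO. The difference, -0.69 (SE 0.18, adjusted p = 0.0177), lost its call when untreated DKO replicate 2 (adjusted p = 0.0629 by limma) or untreated WT replicate 3 (0.0544) was left out. After DEN, Nfe2l2 differed from WT by -0.59 (SE 0.13, adjusted p = 0.00326) in DKO, -0.40 (SE 0.14, adjusted p = 0.118) in p53KO and -0.09 (SE 0.12, adjusted p = 0.697) in RbKO livers. With no set term the p53KO difference was -0.65 and was called (adjusted p = 0.00766 by limma).

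**Figure D4:**
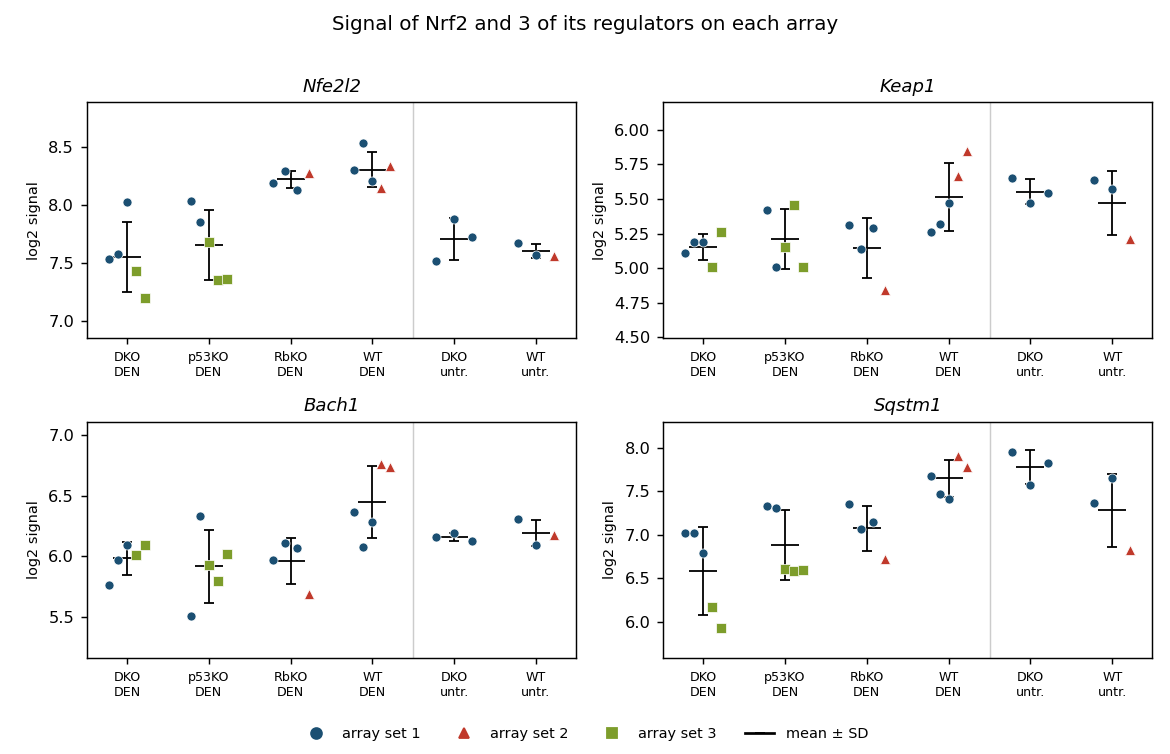
The log2 RMA signal (vertical axes) of Nfe2l2, Keap1, Bach1 and Sqstm1 on every array, with the 6 groups along the horizontal axes, points marked by array set, and the mean ± SD of each group as bars. Nfe2l2 is at 8.13 to 8.53 in RbKO and WT livers after DEN and at 7.20 to 8.03 on all other arrays.

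Of 14 genes that act on or with Nrf2, 1 was called higher (Nfe2l2) and 1 lower (Nfe2l3, a relative of Nrf2) with DEN in WT, where 2.08% of all genes were called higher and 1.91% lower, and none was called higher and 3 lower with DEN in DKO, where 16.5% of all genes were called lower. Nfe2l3, at -0.68 (SE 0.18, adjusted p = 0.0361 by limma), lost its call without any 1 of 6 of the 8 WT arrays, which were the 3 untreated ones and DEN replicates 2, 4 and 5, and was at -0.32 in set 1 alone. The difference of responses was called below 0 for 3, where 8.55% of all genes were called below 0. They were Nfe2l2, the autophagy adaptor gene Sqstm1, whose protein takes Keap1 away from Nrf2, at -1.25 (SE 0.23, adjusted p = 0.00116 by limma), and the ubiquitin ligase subunit gene Btrc at -1.10 (SE 0.26, adjusted p = 0.00802). Keap1 was not called in any of the 12 comparisons, with -0.39 (SE 0.16, adjusted p = 0.0789) for DEN in DKO and 0.05 (SE 0.15, adjusted p = 0.93) for DEN in WT. The DKO change of Keap1 was called lower in set 1 alone, at -0.39 (adjusted p = 0.016 by limma), without set 2 (0.0204) and with array weights (0.0191). It was also called with array centring, at -0.49 (0.0225), and with only the groups compared in the fit (0.0422). In RbKO livers Keap1 was called below DEN WT without DEN WT replicate 1, at -0.46 (0.0426), and below untreated WT with array weights, at -0.36 (0.0323). In RbKO against WT livers after DEN, Sqstm1 was called lower, at -0.60 (SE 0.14, adjusted p = 0.00927 by limma), and Cul3 higher, at 0.48 (SE 0.15, adjusted p = 0.0364). As given above, the number of all genes called in that comparison rested on RbKO replicate 4. Bach1, the repressor of Hmox1, was called lower in RbKO than in WT livers after DEN, at -0.47 (SE 0.15, adjusted p = 0.0399 by limma), and in none of the other comparisons. Its differences from DEN WT were similar in p53KO livers, at -0.51 (0.111), and in DKO livers, at -0.43 (0.072). With no set term it was called in p53KO livers (0.0236) and in DKO livers (0.0339). In DKO livers it was also called with the set as a random block (0.0454), with array centring (0.0355) and without DEN WT replicate 2 (0.0344). The RbKO call of Bach1 ended without DEN WT replicate 1, 4 or 5 or RbKO replicate 1 or 4, and without the last the difference was -0.27 (adjusted p = 0.398 by limma). It also ended in set 1 alone and without set 2, at -0.19 in both (adjusted p = 0.5745 and 0.657). The same held with array weights, at -0.26 (0.27), with no set term, at -0.49 (0.0735), and with only the groups compared in the fit, at -0.46 (0.0976).

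Among 36 other Nrf2 targets tested, DEN raised 5 in WT and lowered none, with a median of 0.16, where 2.08% of all genes were called higher with a median of 0.02. They were Entpd5 at 0.91 (SE 0.14, adjusted p = 0.000371 by limma), the aldehyde oxidase gene Aox1 at 0.85 (SE 0.16, adjusted p = 0.00246), the carbonyl reductase gene Cbr1 at 0.82 (SE 0.17, adjusted p = 0.00534), the glutathione synthetase gene Gss at 0.52 (SE 0.13, adjusted p = 0.0232) and the glutathione reductase gene Gsr at 0.53 (SE 0.15, adjusted p = 0.0434). Without untreated WT replicate 3 the last 3 were not called, at 0.56, 0.32 and 0.31 (adjusted p = 0.082, 0.231 and 0.355 by limma). Gss also lost its call without untreated WT replicate 1 or DEN WT replicate 1 or 5, and Gsr without untreated WT replicate 1 or 2 or DEN WT replicate 1, 2 or 4. In DKO, DEN raised 1 and lowered 11, with a median of -0.16, where 4.49% of all genes were called higher and 16.5% lower with a median of 0. The lowest p-values among the lowered genes were those of Gss at -0.98 (SE 0.14, adjusted p = 2.05e-05), the aldehyde dehydrogenase gene Aldh3a2 at -0.95 (SE 0.13, adjusted p = 2.17e-05) and the aldo-keto reductase gene Akr1b8 at -0.94 (SE 0.19, adjusted p = 0.00083). The difference of responses was called below 0 for 9 of 36 and above 0 for none, where 8.55% of all genes were called below 0. The median was -0.28, against -0.03 over all genes, and the lowest p-values were those of Gss at -1.50, Entpd5 at -1.47, Aldh3a2 at -1.20 and Akr1b8 at -1.36. Against WT after DEN, 3 of the 36 were called lower in p53KO livers, where 1.07% of all genes were. They were Gss at -0.95, Akr1b8 (adjusted p = 0.04993 by limma) and Gsr (0.04995). In RbKO livers 8 were lower, with the lowest p for Ftl1 at -1.26, and 1 was higher, where 6.13% and 5.23% of all genes were. In DKO livers 9 were lower, where 9.14% of all genes were, with the lowest p for Gss at -1.16.

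The genes whose profile over the 6 set-adjusted group means was nearest to that of Ephx1 were the carboxylesterase gene Ces2e, the polo-like kinase gene Plk2 and Cox6b2, with root mean square differences of 0.23, 0.26 and 0.29 log2 after centring each profile, where the median over all genes was 0.90. Set against WT after DEN, Ces2e was at -1.19 in DKO livers, at -1.56 in p53KO livers and at -0.09 in RbKO livers. Plk2 was at -1.48 in DKO livers, at -0.97 in p53KO livers and at -0.20 in RbKO livers. Nearest to Osgin1 were the ephrin gene Efna1, Coro1c and Depp1, at 0.19, 0.23 and 0.23 log2, where the median over all genes was 0.65. Before DEN, Efna1 was higher in DKO than in WT by 1.66, Coro1c by 0.99 and Depp1 by 1.67. These genes were chosen for their likeness, so their values are a description.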

How the data were processed

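Per the labels' protocols, the WT-Ovation Pico kit amplified liver RNA, which was then biotin-labelled. What the authors deposited is on the log2 scale after RMA (background correction, quantile normalization and a summary per probe set), made with Affymetrix Expression Console 1.1 per the submitters' processing notes. Whether all arrays were normalized together, and the genome build, are not given in the sources used here.

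Of 35555 probe sets on 25 arrays, 23409 were listed in the probe table, 21789 with 1 gene symbol and 1620 with several, which were left out. The probe set with the highest mean was kept per gene (19938 genes). The 3988 genes under the 20th percentile (3.33 log2) were left out, leaving 15950. Group means and the array set were fitted with limma 3.58.1 (lmFit, eBayes) in R 4.3.3, with 12 contrasts, two-sided, Benjamini-Hochberg adjusted over all genes tested. The number of arrays limits the precision. The fit was tested on simulated data. The alternatives were 12 other settings, the random block using statmod 1.5.0, and each array left out. RefSeq tables (GRCm38.p6) gave symbols, positions and promoters. Members and gene lists were chosen with earlier results of these data known. The genes named are all members, Rb1 as a check of the deletion, Nfe2l2, Keap1 and Bach1, up to 4 called genes of each pathway list by p in the comparisons described, and 3 genes of like profile for each of the 2 members with the largest difference of responses. Gsr was named after its values were seen, to complete a count.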

Additional observations from a re-analysis of the deposited data

Results flagged for a closer look

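The DEN response differed between DKO and WT livers, by the test of the difference itself in limma, for 6 members: Nqo1 at -0.93, Gclc at -1.01, Txnrd1 at -0.60, Hmox1 at -1.52, Ephx1 at -1.96 and Osgin1 at -2.34 log2. Of these, Ephx1, Nqo1 and Txnrd1 rose in WT, and Gclc, Hmox1 and Osgin1 fell in DKO.

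A single array lay far from the others of its group in 2 of 40 groups of members examined, where chance gives about 1 in 20. Nqo1 was at 4.18 in DEN p53KO replicate 3, with the nearest other array at 4.55, so that the gap took 0.729 of the range of the group. Gclc was at 9.98 in DEN RbKO replicate 4, with the nearest at 9.49 and a share of 0.861. That RbKO array is the only one of its group in set 2.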

How the results depend on the processing

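No member value changed sign against a call in any alternative. Outside the single arrays left out, 1233 member values kept their side of the threshold, 42 came to pass it and 21 no longer passed it. With single arrays left out, the numbers were 950, 11 and 29. The rule of rising in WT but not in DKO was met by Nqo1 in 12 of 12 other settings and with each of the 16 DKO and WT arrays left out, by Ephx1 in 10 settings and with 16 arrays, and by Txnrd1 in 6 settings and with 6 arrays. Gclc met it in 3 settings and with 1 array left out, and Srxn1 in 3 settings.

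The number of members called moved by more than 1.5 times as follows. DEN in WT gave 3 in place of 5 with no set term and with only the groups compared in the fit. DKO against WT untreated gave 0 in place of 2 with no set term and 1 with the set as a random block or another quantile normalization, and 0 to 2 with an array left out. p53KO against WT after DEN gave 2 in place of 1 with no set term or each array centred on its median, 3 in set 1 alone (Ephx1 and Gclc lower, Ugdh higher), and 1 to 3 with an array left out. The number of all genes called there was 1256 with no set term, 269 with centring and 943 in set 1 alone, against 284. RbKO against WT gave 1 in place of 0 with array weights, and 0 to 2 with an array left out. DKO against p53KO gave 0 in place of 1 with no set term and 2 in set 1 alone. DKO against RbKO and p53KO against RbKO each gave 2 in place of 1 in set 1 alone, with array weights and with only the groups compared. p53KO after DEN against untreated WT gave 1 to 3, against 2, with an array left out. The number of all genes called also moved between settings, as given below. The causes were not tested.

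The share of all calls that were lower moved with centring of each array on its median over all probe sets. It was 90.9% against 78.6% for DEN in DKO and 38.4% against 48% for DEN in WT. For untreated DKO against WT it was 10.7% against 22%, and for p53KO against WT after DEN 70.6% against 60.2%. Centring moved the median of all genes to -0.104 for DEN in DKO and to -0.154 for the difference of responses. Over the other settings and arrays left out, the number of all genes called ran for DEN in WT from 142 (no set term) to 1943 (array weights), against 636, and for DEN in DKO from 2396 to 4769, against 3344. It ran for the difference of responses from 664 to 2391, against 1580, and for untreated DKO and WT from 44 (without untreated DKO replicate 3) to 1575 (array weights), against 177. After DEN it ran for p53KO and WT from 35 (without p53KO replicate 2) to 1256 (no set term), against 284, for RbKO and WT from 193 to 1990, against 1811, and for DKO and WT from 523 to 2284, against 1887. For DKO and p53KO it ran from 27 to 777, against 298, for DKO and RbKO from 30 to 280, against 164, and for p53KO and RbKO from 23 to 533, against 92. For p53KO and untreated WT it ran from 206 to 3368, against 1095, and for RbKO and untreated WT from 585 to 3723, against 1595. No paired analysis was possible because the numbers in the array names run through the arrays of a set, none recurs within a set, and no label ties arrays of different sets that carry the same number.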
